A study of Homo sapiens with 12 samples.

Results

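RUNX1, RUNX2, RUNX3 and CBFB, the 4 genes of the core binding factor, were followed through the H3K9ac profile of MOLM-13 cells. Every listed region that overlapped the RefSeq body of one of these genes, or lay within 10 kb of it, was taken, which gave 45 of the 47648 regions of the table: 24 for RUNX1, 12 for RUNX2, 6 for RUNX3 and 3 for CBFB. MOLM-13 is a human line from an acute myeloid leukaemia with a KMT2A-MLLT3 fusion gene and a FLT3 internal tandem duplication. Acetylated lysine 9 of histone H3, found at promoters and enhancers in use, was measured by chromatin immunoprecipitation sequencing in 3 libraries of cells given WM-1119 (4 µM for 4 days), a small molecule inhibitor of the lysine acetyltransferase KAT6A, and in 3 libraries of cells given the solvent DMSO. Both groups are the same unsorted cell line with no further alteration named, and the 6 input samples were not analysed here. Whether the replicates came from separate cultures is not in the labels, so p-values measure only the spread between these libraries, which may be technical.

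RUNX proteins are transcription factors that bind DNA through the Runt domain, and CBFB encodes CBFβ, a partner that does not itself touch DNA but stabilises the binding of all RUNX proteins. RUNX1 is needed for blood stem cells to arise and for myeloid and megakaryocyte maturation, RUNX2 is the master factor of bone-forming cells, and RUNX3 acts in T cells and other lineages. Each RUNX gene is transcribed from a distal promoter (P1) and, far inside the gene, a proximal promoter (P2), and the transcripts encode proteins with different first residues. Chromosomal rearrangements of RUNX1 and of CBFB define the core binding factor leukaemias, a group to which MOLM-13 does not belong. KAT6A binds RUNX1 and serves as one of its coactivators.

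The unit throughout is CPM, which makes the listed regions of a library add up to 1000000. The libraries held 4542322, 9996190 and 12705349 reads in regions for WM-1119 replicates 1, 2 and 3, and 719329, 1298443 and 7481097 for DMSO replicates 1, 2 and 3, as the steps between values give them. The step of WM-1119 replicate 2 lies near a round value, so its number is uncertain. With 0 reads a region could still lie at up to 0.236 CPM in WM-1119 replicate 3 and at up to 4.17 CPM in DMSO replicate 1, for counting error only. The weaker part of the regions, split at the median region, took 2.19% to 3.35% of CPM in the WM-1119 libraries and 8.95%, 7.19% and 2.35% in DMSO replicates 1, 2 and 3. DMSO replicates 1 and 2 thus stood apart from the other 4 libraries, and values without them are given beside the results that follow. Markers of the line were in place, with end regions of HOXA9, MEIS1, CEBPA, SPI1, FLT3 and LYZ at means of 68.8 to 1137 CPM in either group, while those of CD33, CSF1R and ITGAM lay at 1.54 to 5.17 CPM. The HOXA9 region also lies at the ends of other HOXA genes, and the CSF1R region at the end of HMGXB3. The erythroid genes GATA1, HBB and ALAS2 and the B cell gene MS4A1 had no listed region at their ends. Summed CPM over 4 of 5 lymphoid markers was 14.5 to 19.2 in WM-1119 and 17.4 to 41.7 in DMSO, and over 4 of 5 epithelial and stromal markers, chiefly PECAM1, 40.1 to 49.1 in WM-1119 and 33.1 to 58.4 in DMSO.

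Promoter sequences of 300 bases, 250 before a RefSeq start and 50 from it on, show how the promoters of these genes differ in make-up. The RefSeq table of GRCh38.p14 listed both promoters of RUNX2 and RUNX3 and the proximal one of RUNX1. The RUNX1 distal promoter and the CBFB promoter have no entry there. The 5 are given 5′ to 3′ on the strand of the gene, with the core RUNX motifs TGTGGT and TGCGGT, on either strand (ACCACA and ACCGCA), in capitals; no match overlaps another.
RUNX1 proximal, chr21:34888650-34888949, minus strand: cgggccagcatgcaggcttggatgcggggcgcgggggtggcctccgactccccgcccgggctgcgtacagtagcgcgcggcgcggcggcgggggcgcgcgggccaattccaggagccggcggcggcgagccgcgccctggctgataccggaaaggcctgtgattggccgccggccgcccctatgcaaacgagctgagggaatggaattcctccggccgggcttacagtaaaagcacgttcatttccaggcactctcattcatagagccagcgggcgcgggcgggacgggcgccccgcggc
RUNX2 distal, chr6:45328080-45328379, plus strand: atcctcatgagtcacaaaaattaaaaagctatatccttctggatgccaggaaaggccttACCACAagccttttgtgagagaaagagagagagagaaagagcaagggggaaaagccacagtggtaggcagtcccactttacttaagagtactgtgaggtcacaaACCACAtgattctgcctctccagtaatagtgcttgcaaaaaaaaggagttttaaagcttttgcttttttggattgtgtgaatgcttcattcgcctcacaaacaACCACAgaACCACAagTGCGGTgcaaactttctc
RUNX2 proximal, chr6:45422025-45422324, plus strand: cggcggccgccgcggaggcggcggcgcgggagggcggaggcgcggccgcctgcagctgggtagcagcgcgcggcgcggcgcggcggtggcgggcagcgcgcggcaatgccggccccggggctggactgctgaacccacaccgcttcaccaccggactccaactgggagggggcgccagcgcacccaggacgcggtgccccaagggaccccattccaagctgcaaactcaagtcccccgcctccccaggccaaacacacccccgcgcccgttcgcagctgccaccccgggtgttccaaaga
RUNX3 distal, chr1:24964961-24965260, minus strand: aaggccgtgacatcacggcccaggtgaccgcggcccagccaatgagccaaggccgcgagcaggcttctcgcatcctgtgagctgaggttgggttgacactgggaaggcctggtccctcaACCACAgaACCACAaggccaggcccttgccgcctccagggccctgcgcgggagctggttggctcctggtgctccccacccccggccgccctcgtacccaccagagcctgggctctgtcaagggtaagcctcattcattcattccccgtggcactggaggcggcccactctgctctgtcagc
RUNX3 proximal, chr1:24930227-24930526, minus strand: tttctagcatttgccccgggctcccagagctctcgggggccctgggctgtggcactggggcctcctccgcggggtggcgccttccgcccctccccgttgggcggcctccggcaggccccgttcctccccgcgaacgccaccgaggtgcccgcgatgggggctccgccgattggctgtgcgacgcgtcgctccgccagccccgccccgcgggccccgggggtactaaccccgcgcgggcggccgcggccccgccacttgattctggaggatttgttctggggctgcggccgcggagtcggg

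The proximal promoters were rich in CpG. They held 40 CpG dinucleotides in RUNX1, 39 in RUNX2 and 38 in RUNX3, where the median of 34796 different promoters of the table was 14. The distal promoter of RUNX2 held 2 and that of RUNX3 held 15. The motifs fell the other way. The 3 proximal windows held none, while the distal window of RUNX2 held 5 matches, 4 of TGTGGT and 1 of TGCGGT, and that of RUNX3 held 2 of TGTGGT. Of all promoters 19.6% held at least 1 match, 2.32% held 2 or more and 0.0115% held 5 or more. A match describes these letters and shows no binding.

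Most of the listed H3K9ac of each RUNX gene lay at its proximal promoter. For RUNX1 and RUNX2 the proximal region was among the widest and strongest of the genome: it ranked 38 and 66 by width and 92 and 81 by mean CPM among the 47648 regions. For RUNX3 the proximal region was weaker and narrower, at rank 4508 by mean CPM. The distal promoter carried a moderate region in RUNX1 and a weak one in RUNX3. At the distal promoter of RUNX2, the CpG-poor sequence shown above, the table listed no region, and the nearest one in the gene began 48227 bp away. The table holds only regions that the authors listed, so no level can be given there.

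**Figure D1:**
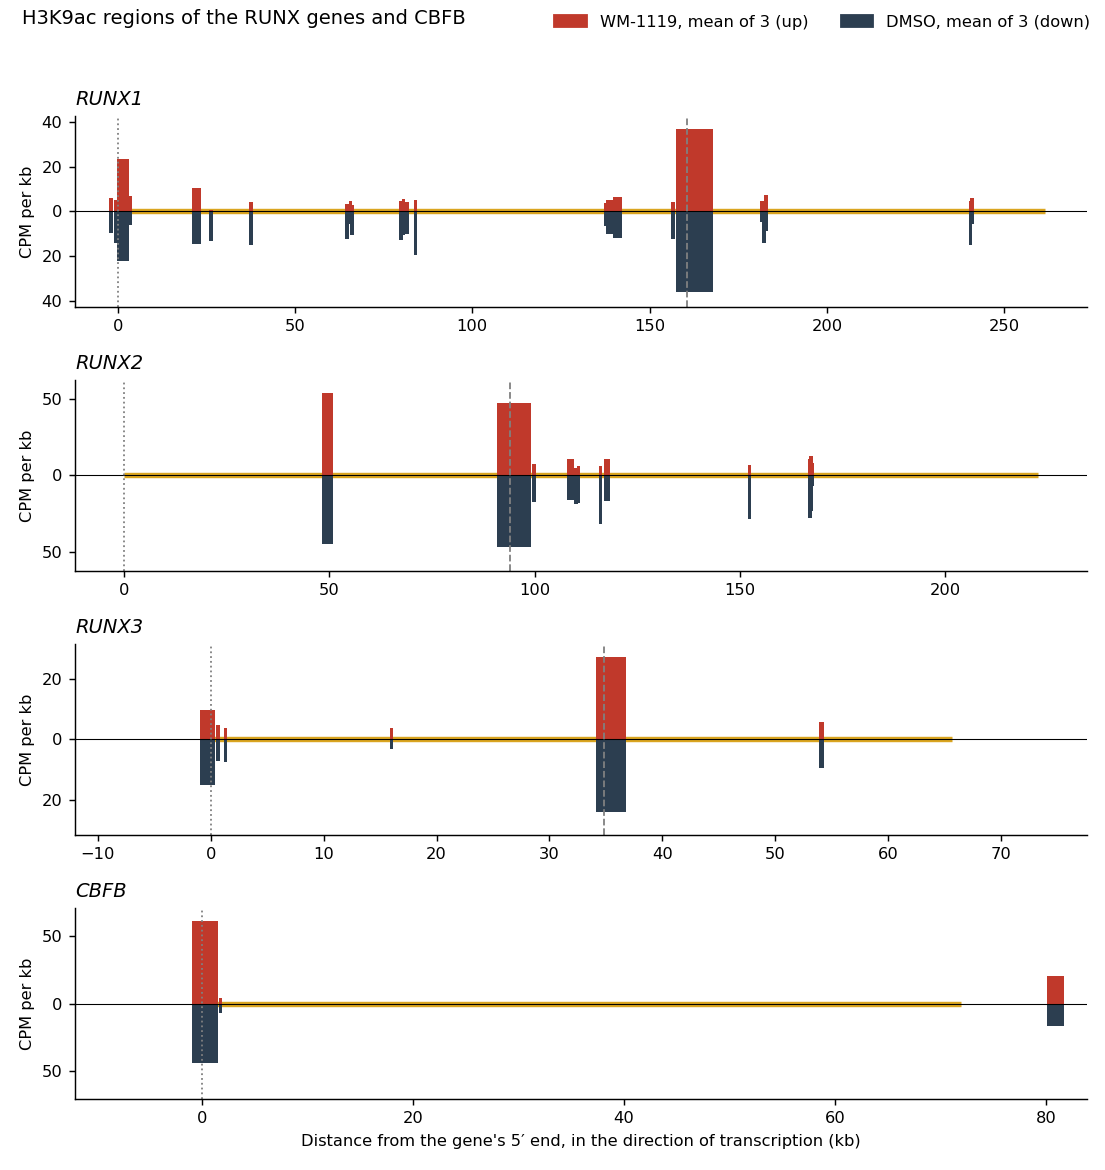
H3K9ac of each region in CPM per kb (mean of 3 libraries; WM-1119 drawn upward, DMSO downward) by distance from the 5′ end of the gene (kb), with the gene body as a yellow line, the 5′ end dotted and the proximal start dashed; very narrow regions are drawn wider than they are. The widest region of each RUNX gene sits on its proximal start, 160.6 kb, 93.9 kb and 34.9 kb into RUNX1, RUNX2 and RUNX3, and no region sits on the 5′ end of RUNX2. The tall, narrower region 49.6 kb into RUNX2 is the end of SUPT3H.

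None of these regions changed past the threshold. Of the 45 regions 41 had a mean of at least 1 CPM, the other 4 being weak internal regions, and were fitted with limma on log2(CPM + 1), a scale that understates changes of weak regions. With Benjamini-Hochberg adjustment over all 44763 fitted regions and a threshold of 0.05, 0 of the 41 were called, where 0.0603% of all fitted regions were called lower and 0% higher. An unadjusted p under 0.05 was reached by 7 lower regions and 1 higher one, where 10.8% and 2.58% of all fitted regions reached it. Their median log2 change was -0.58, with 32 of 41 below 0, where the median of all fitted regions was -0.47 and 77.2% were below 0. The groups did not overlap in 10 lower and 2 higher regions, where 13.2% and 3.76% of all fitted regions did so. With median centring, under which the median of all regions was 0.30, the median of the members was 0.19, and an unadjusted p under 0.05 was reached by 5 higher and 0 lower members, as by 4369 higher and 557 lower of all regions. edgeR's quasi-likelihood test on the recovered reads of 5 libraries also called 0, and 2 lower and 0 higher members had an unadjusted p under 0.05, as had 1773 lower and 350 higher of all 44763. In tests on simulated data of 43842 fitted regions, changes were placed only in regions of at least 10 CPM, and all libraries were drawn from 1 mean profile. There limma recovered 14% of 100 2-fold and 89% of 100 4-fold changes, so most 2-fold changes went uncalled at the dispersion simulated, 0.05. In the data the SE was 0.14 to 0.18 (log2) at RUNX1 proximal and distal, RUNX2 proximal, RUNX3 proximal and CBFB, and 0.33 at RUNX3 distal. Recovery at those SEs was not simulated. Only 13 of the 45 member regions reached 10 CPM, and the rates do not cover the weaker ones or the unlike background of DMSO replicates 1 and 2.

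The proximal promoter region of RUNX1, chr21:34881496-34891855 (hg38), covered 10360 bp, from 3.16 kb upstream of the proximal start to 7.20 kb downstream of it. It held 375, 384 and 391 CPM in WM-1119 replicates 1, 2 and 3, against 300.3, 364 and 448 CPM in DMSO replicates 1, 2 and 3. These rest on 1703 to 4964 reads per WM-1119 library and on 216, 472 and 3355 reads in the DMSO libraries. All 3 WM-1119 values lay inside the DMSO range, with means of 383 ± 7.91 and 371 ± 74.4 CPM (SD, n = 3 each). That is 0.07 ± 0.14 on the log2 scale (SE; limma adjusted p = 0.773). It was -0.13 with quantile normalization, 0.84 with median centring, and -0.23 without DMSO replicates 1 and 2, which leaves a lone DMSO library that is assumed to vary like the others. The non-coding gene RUNX1-AS1 overlaps this region, and ChIP reads carry no strand that would tell the genes apart.

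The distal promoter region of RUNX1, chr21:35046140-35049362, began 60 bp upstream of the 5′ end of the gene and ran 3.16 kb into it. It held 81.2, 72.9 and 70.4 CPM in WM-1119 replicates 1, 2 and 3, against 89.0, 60.8 and 65.8 CPM in DMSO replicates 1, 2 and 3. The groups overlapped, and the difference was 0.07 ± 0.18 on the log2 scale (SE; limma adjusted p = 0.804), 0.85 with median centring and 0.18 without DMSO replicates 1 and 2. A small region just upstream, chr21:35049541-35049862, held 1.18 to 2.42 CPM in WM-1119 and 2.14 to 8.34 CPM in DMSO, which is 4 to 16 reads per DMSO library. Per kb, the distal region of RUNX1 stood at 69.6%, 61.1% and 57.9% of the proximal one in WM-1119 replicates 1, 2 and 3, and at 95.2%, 53.8% and 47.1% in DMSO replicates 1, 2 and 3. DMSO replicate 1, the shallowest library, was the one in which the promoters came closest.

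RUNX1 had 20 internal regions, 17 of them fitted, in a gene known to hold enhancers active in blood cells. The strongest was at chr21:35025823-35028383, 20.9 to 23.5 kb into the gene. It held 25.1, 30.5 and 24.3 CPM in WM-1119 replicates 1, 2 and 3, against 52.8, 26.2 and 34.1 CPM in DMSO replicates 1, 2 and 3. The groups overlapped, and DMSO replicate 1 was the highest library (log2 change -0.43 ± 0.24, SE; limma adjusted p = 0.386).

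A pair of neighbouring regions lay 18.4 to 22.9 kb upstream of the proximal start. The one at chr21:34907080-34909581 held 17.4, 18.9 and 13.0 CPM in WM-1119 replicates 1, 2 and 3, against 33.4, 30.8 and 24.6 CPM in DMSO replicates 1, 2 and 3. The WM-1119 libraries lay below all DMSO libraries, with a log2 change of -0.82 ± 0.27 (SE) that did not pass (limma adjusted p = 0.31, unadjusted p = 0.003). Its neighbour at chr21:34909621-34911580 held 10.6, 11.3 and 8.26 CPM in WM-1119, against 25.02, 17.7 and 15.5 CPM in DMSO. Here too the groups did not overlap, and the log2 change of -0.87 ± 0.34 (SE) did not pass (limma adjusted p = 0.339). Without DMSO replicates 1 and 2 the changes were -0.57 and -0.59, with median centring -0.04 and -0.10. Without DMSO replicate 3 both passed, at limma adjusted p of 0.00982 and 0.013, as did 17206 lower regions of the whole table. The next strongest, chr21:34866038-34866783, held 6.82, 6.002 and 3.31 CPM in WM-1119, against 12.5, 4.62 and 2.81 CPM in DMSO, with 9 reads behind the highest value, in DMSO replicate 1.

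Of the RUNX promoters the proximal one of RUNX2 held the most H3K9ac per kb. Its region, chr6:45419112-45427456, covered 8345 bp, from 3.16 kb upstream of the start to 5.18 kb downstream. It held 430, 368 and 400.4 CPM in WM-1119 replicates 1, 2 and 3, against 339, 350 and 482 CPM in DMSO replicates 1, 2 and 3. As in RUNX1, DMSO replicate 3 was the highest library and DMSO replicate 1 the lowest. The difference was 0.05 ± 0.14 on the log2 scale (SE; limma adjusted p = 0.832). It was -0.15 with quantile normalization, 0.82 with median centring and -0.27 without DMSO replicates 1 and 2.

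**Figure D2:**
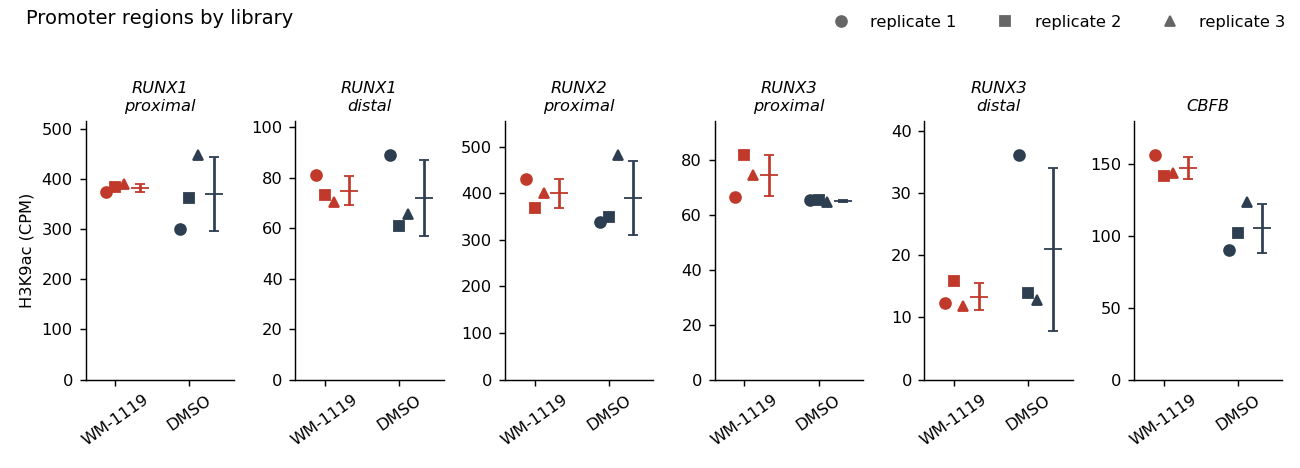
H3K9ac in CPM at the strongest region of each promoter, by library (points; shape gives the replicate), with mean and SD of each group of 3 as bars beside them and WM-1119 left of DMSO; each panel has its own axis from 0. Only at RUNX3 proximal and CBFB do the 3 WM-1119 libraries lie above all 3 DMSO libraries. At every promoter shown except RUNX3 proximal the DMSO libraries spread more widely than the WM-1119 libraries.

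A region inside RUNX2, chr6:45376557-45379303, is the end of SUPT3H, a gene of the SAGA coactivator complex that overlaps RUNX2, and its signal cannot be given to RUNX2. It held 153, 142 and 153 CPM in WM-1119 replicates 1, 2 and 3, against 90.4, 129 and 149 CPM in DMSO replicates 1, 2 and 3 (limma adjusted p = 0.38).

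The other internal regions of RUNX2 lay downstream of the proximal promoter. The strongest, chr6:45436296-45437908, held 20.03, 16.0 and 15.3 CPM in WM-1119 replicates 1, 2 and 3, against 27.8, 27.7 and 22.5 CPM in DMSO replicates 1, 2 and 3. The groups did not overlap, and the log2 change of -0.58 ± 0.27 (SE) did not pass (limma adjusted p = 0.363). The region at chr6:45445321-45446648 held 13.9, 13.8 and 16.4 CPM in WM-1119, against 27.8, 20.8 and 18.4 CPM in DMSO, -0.56 ± 0.29 on the log2 scale (SE; limma adjusted p = 0.379). The shoulder of the proximal region at chr6:45427763-45428560 held 7.93, 4.10 and 5.67 CPM in WM-1119, against 19.5, 13.9 and 8.82 CPM in DMSO. Its log2 change of -1.10 ± 0.42 (SE; limma adjusted p = 0.339) was -0.55 without DMSO replicates 1 and 2. With median centring the first of these 3 regions turned to 0.19 and the second to 0.22, and the shoulder stayed lower at -0.33.

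**Figure D3:**
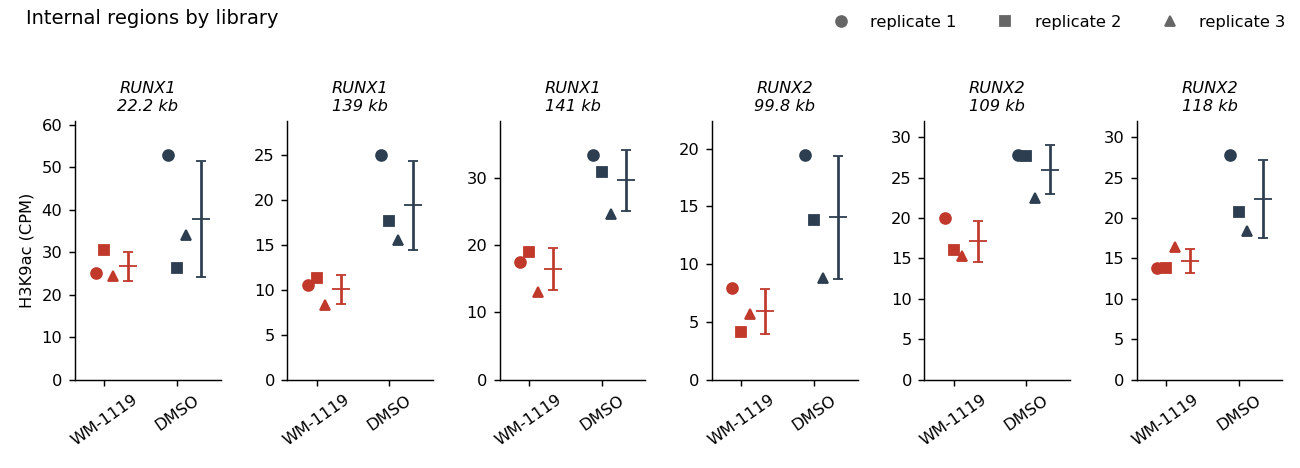
H3K9ac in CPM at the 3 strongest internal regions of RUNX1 and of RUNX2 (the end of SUPT3H left out), titled by distance from the 5′ end of the gene in kb, by library, with mean and SD of each group of 3 as bars and WM-1119 left of DMSO. In 5 of the 6 the WM-1119 libraries lie below all DMSO libraries, and DMSO replicate 1 is the highest library in all 6.

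These internal regions can be set beside others of the same strength. The RUNX genes held 5 internal regions of 10 to 50 CPM, all lower in WM-1119, with a median log2 change of -0.58, 4 with groups that did not overlap and 3 at an unadjusted p under 0.05. Among 4094 regions of that strength away from coding gene ends, 82.4% were lower, the median was -0.39, 21.0% had WM-1119 below DMSO without overlap and 24.9% were lower at an unadjusted p under 0.05. Without DMSO replicates 1 and 2 the 5 had log2 changes of -0.59 to -0.31, where the median of such regions was 0.00 and its quartiles -0.22 and 0.25. For the 4 whose groups do not overlap, that sign follows from the lack of overlap. In the remaining 25 weaker internal regions that were fitted, with means of 1.01 to 9.97 CPM, DMSO replicates 1 and 2 supplied the highest value 24 times, and the reads in DMSO replicate 1 numbered 1 to 14. Of these 25, 23 were lower, and without DMSO replicates 1 and 2, 8 of the 16 still fitted were lower. The background, the 10th percentile of CPM per kb over regions of 500 to 1200 bp, was 4.06, 3.55 and 3.67 CPM per kb in WM-1119 replicates 1, 2 and 3 and 8.96, 6.93 and 3.22 in DMSO replicates 1, 2 and 3 on chromosome 21, and 5.73, 5.08 and 4.44 against 12.2, 10.8 and 3.91 on chromosome 6. With that background subtracted, the log2 changes of the 5 regions were -0.36, -1.39 and -1.15 in RUNX1 and -0.50 and -0.53 in RUNX2, from the 5′ end on. The median of the 4094 regions of that strength was then -0.40.

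Of the 3 proximal promoters that of RUNX3 held the least H3K9ac per kb. Its region, chr1:24928324-24931020, held 66.7, 81.8 and 74.6 CPM in WM-1119 replicates 1, 2 and 3, against 65.3, 65.5 and 64.7 CPM in DMSO replicates 1, 2 and 3. The WM-1119 libraries lay above the DMSO libraries, the lowest of them by little, and the log2 change of 0.18 ± 0.18 (SE) did not pass (limma adjusted p = 0.55). It was 0.95 with median centring. The median log2 change of all regions of 50 to 100 CPM was 0.16. The distal promoter region, chr1:24964716-24966087, held 12.3, 15.8 and 11.9 CPM in WM-1119 replicates 1, 2 and 3, against 36.1, 13.9 and 12.8 CPM in DMSO replicates 1, 2 and 3. A single library, DMSO replicate 1 with 26 reads, set the difference: with it the change was -0.47 ± 0.33 on the log2 scale (SE; limma adjusted p = 0.442), without it -0.01. The antisense gene RUNX3-AS1 overlaps the proximal region and most of the stretch between the promoters. The weaker distal region, chr1:24964323-24964635, and the internal ones at chr1:24910819-24911314 and chr1:24963651-24963943 held at most 5.56 CPM in any library, on 2 to 22 reads in the DMSO libraries, with log2 changes of -0.29, -0.49 and -0.58 (limma adjusted p of 0.754, 0.585 and 0.548).

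CBFB had 1 promoter region, chr16:67028257-67030660, over its 5′ end, which had the largest log2 change above 0 of the 41 fitted regions, without passing the threshold. It held 157, 142 and 144 CPM in WM-1119 replicates 1, 2 and 3, against 90.4, 102 and 124 CPM in DMSO replicates 1, 2 and 3. All 3 WM-1119 libraries lay above all 3 DMSO libraries, at means of 148 ± 7.85 and 106 ± 17.1 CPM (SD, n = 3 each). That is 0.49 ± 0.16 on the log2 scale (SE; limma adjusted p = 0.31, unadjusted p = 0.00337). Of 6457 regions averaging 50 CPM or more, 85.6% had log2 changes above 0, 18.3% had WM-1119 above DMSO without overlap and 15.6% were higher at an unadjusted p under 0.05. The median log2 change of the 2525 regions with at least 100 CPM was 0.23, with quartiles of 0.13 and 0.32, so CBFB lay above the upper quartile. Without DMSO replicates 1 and 2 it was at 0.25, where that median was -0.02. With median centring it was 1.26. It passed without DMSO replicate 3, at 0.61 (limma adjusted p = 0.00643), as did 2394 higher and 17206 lower of the 45326 regions fitted then. The only other region in the body of CBFB, chr16:67030807-67031042, held at most 2.78 CPM in any library, and the region at chr16:67109199-67110809 beyond the gene lies at the end of the neighbour PHAF1 (35.4, 34.7 and 28.6 CPM in WM-1119, 32.0, 27.7 and 22.3 CPM in DMSO).

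**Figure D4:**
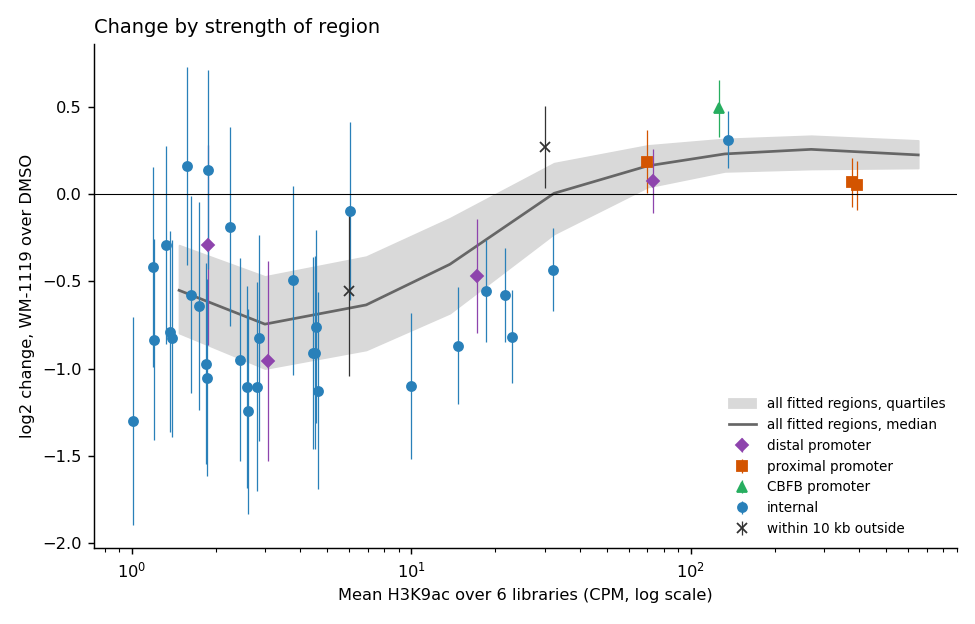
Log2 change (WM-1119 over DMSO; points with SE) of the 41 fitted regions against their mean CPM over 6 libraries on a log axis, by kind of region, over the median (line) and quartiles (grey) of all 44763 fitted regions binned by strength. Over all regions the median climbs from -0.75 at 2 to 5 CPM to 0.26 at 200 to 500 CPM; RUNX1 and RUNX2 proximal lie below the grey band and CBFB above it.

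The strongest promoters can be set beside regions of like strength or width. The 176 regions with at least 300 CPM had a median log2 change of 0.24, with quartiles of 0.13 and 0.32, and RUNX1 proximal at 0.07 and RUNX2 proximal at 0.05 were below that range by less than 1 SE. The 68 regions wider than 8 kb had a median of 0.14, with quartiles of 0.06 and 0.26, so that among wide regions RUNX1 proximal lay inside the quartiles and RUNX2 proximal just under them. Without DMSO replicates 1 and 2 the medians of these sets were -0.08 and -0.17, and RUNX1 and RUNX2 proximal were at -0.23 and -0.27.

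Levels of different genes can be compared per length. CBFB stood at 61.4 ± 3.26 CPM per kb in WM-1119 and 43.9 ± 7.10 in DMSO, RUNX2 proximal at 47.9 ± 3.70 in WM-1119 and 46.8 ± 9.54 in DMSO, and RUNX1 proximal at 37.0 ± 0.764 in WM-1119 and 35.8 ± 7.18 in DMSO (SD, n = 3 each). RUNX3 proximal followed at 27.6 ± 2.81 CPM per kb in WM-1119 and 24.2 ± 0.153 in DMSO, RUNX1 distal at 23.2 ± 1.76 in WM-1119 and 22.3 ± 4.66 in DMSO, and RUNX3 distal at 9.72 ± 1.57 in WM-1119 and 15.3 ± 9.60 in DMSO. RUNX2 proximal was above RUNX1 proximal, RUNX1 proximal above RUNX3 proximal and RUNX1 distal above RUNX3 distal in 6 of 6 libraries. CBFB was above RUNX2 proximal in 4 of 6, among them all 3 WM-1119 libraries, where the values did not overlap, while the DMSO libraries were mixed. RUNX3 proximal was above RUNX1 distal in 4 of 6, and the values of these neighbours overlapped. The background per kb was higher on chromosome 6, which holds RUNX2, than on chromosome 21, which holds RUNX1, in each library. Whether this bears on the order of these genes was not tested. Among 13469 regions at coding gene ends, CBFB exceeded 95.6% per kb, RUNX2 proximal 93.1%, RUNX1 proximal 82.0%, RUNX3 proximal 61.4%, RUNX1 distal 54.6% and RUNX3 distal 33.2%.

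How each gene's signal was divided among its regions does not depend on a linear scaling of a library. The proximal promoter held 69.3%, 71.0% and 74.4% of the CPM in the body of RUNX1 in WM-1119 replicates 1, 2 and 3, against 51.6%, 65.7% and 73.1% in DMSO replicates 1, 2 and 3. Its internal regions held 15.2% and 15.3% in WM-1119 replicates 1 and 2 and less in replicate 3, against 31.7%, 22.7% and 15.9% in DMSO. The internal share was thus below the DMSO range in every WM-1119 library, by little for DMSO replicate 3, and the difference was -9.26 percentage points (two-sided exact permutation test of 6 libraries, p = 0.1, the smallest that 3 against 3 can give; 0.36 adjusted over 9 shares). With a background subtracted per chromosome these internal shares were 8.22%, 9.34% and 5.05% in WM-1119 against 23.1%, 12.6% and 11.2% in DMSO, still without overlap. Without subtraction, the difference was -13.1 to -5.11 points with 1 library left out, the smaller without DMSO replicate 1, and -1.69 points without DMSO replicates 1 and 2.

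In RUNX2, RUNX3 and CBFB the shares of the groups overlapped, but with the background subtracted some did not. The proximal promoter of RUNX2, with the end of SUPT3H left out, held 87.7% to 90.2% in WM-1119 and 72.4%, 79.8% and 88.9% in DMSO replicates 1, 2 and 3 (exact permutation p = 0.2). In RUNX3 the proximal promoter held 77.3% to 82.3% in WM-1119 and 57.3%, 73.3% and 77.6% in DMSO (exact permutation p = 0.2), and the distal one 14.1% to 16.7% in WM-1119 and 34.1%, 19.0% and 16.3% in DMSO (exact permutation p = 0.3). With the background subtracted, the internal regions of RUNX2 held 7.43%, 5.36% and 5.601% in WM-1119 against 22.1%, 11.7% and 8.19% in DMSO. Those of RUNX3 held 1.83%, 1.79% and 0.485% in WM-1119 against 3.17%, 3.49% and 3.74% in DMSO. Both were without overlap, as in RUNX1, but how often internal shares of all genes part in this way was not computed. Weak regions ran lower over the whole table, where subtraction left those between 1 and 10 CPM at a median of -0.83 (log2). The RUNX3 shares rest on few reads. Its internal regions held 2, 1 and 4 reads in DMSO replicate 1, while DMSO replicate 2 had 2, 0 and 7. Without subtraction and without DMSO replicates 1 and 2, the RUNX2 proximal share differed by 0.145 percentage points and the RUNX3 proximal one by 1.75. In CBFB the promoter held 97.01% to 99.7% in every library of either group.

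**Figure D5:**
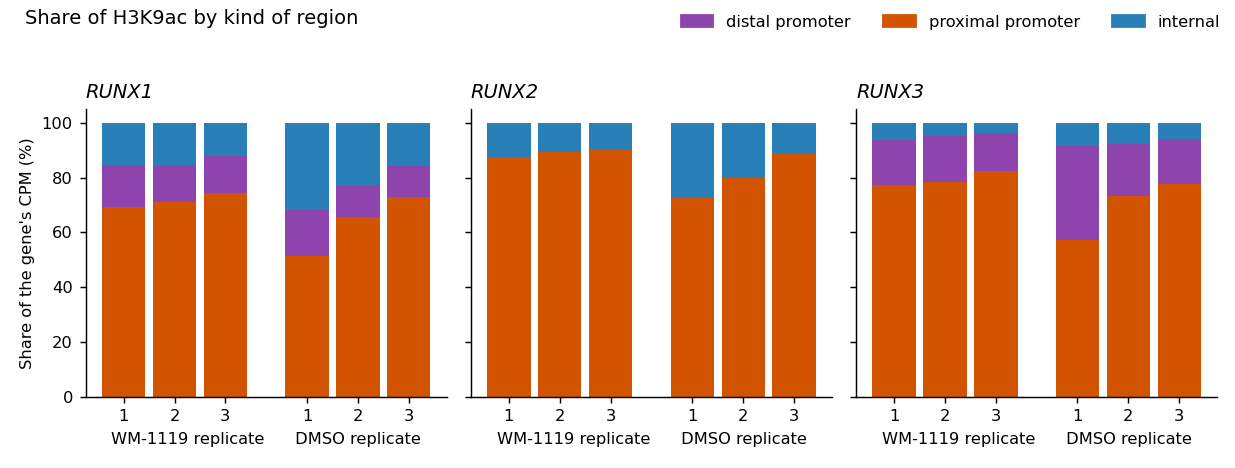
Share of the CPM in the body of RUNX1, RUNX2 (without the end of SUPT3H) and RUNX3 that lay in the proximal promoter, the distal promoter and internal regions (%), 1 bar per library, WM-1119 left of DMSO. DMSO replicates 1 and 2 hold the largest internal shares in RUNX1 and RUNX2, and DMSO replicate 3 lies close to the WM-1119 libraries.

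Summed over all regions of a gene body, RUNX1 held 538, 539 and 524 CPM in WM-1119 replicates 1, 2 and 3, against 574, 549.9 and 612 CPM in DMSO replicates 1, 2 and 3. The WM-1119 sums, internal regions included, lay below the DMSO sums, and the difference was -0.11 ± 0.12 on the log2 scale (SE; limma adjusted p = 0.688 over 13529 coding genes). The share of all coding gene sums without overlap was not computed. The sums of RUNX2, the end of SUPT3H included, and of RUNX3 differed by -0.01 ± 0.14 and -0.02 ± 0.15 (log2, SE), while that of CBFB, at 157, 143 and 146 CPM in WM-1119 against 93.1, 103 and 125 CPM in DMSO, differed by 0.48 ± 0.14 (SE; limma adjusted p = 0.538). limma called 0% of all coding gene sums, and an unadjusted p under 0.05 was reached by 703 higher and 489 lower sums.

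None of the genes listed as working with the core binding factor changed past the threshold in limma fitted to all 6 libraries without weights or a replicate block. Each was represented by the strongest region at its ends. The regions of HIPK2, CCND3, NCOR1, HDAC3, LYL1, GFI1B, CSF1R and ALOX12 also lie at the end of another coding gene, so their signal cannot be given to the listed gene alone. limma called 0 in each of 4 lists, where 0.00816% of the regions standing for coding genes were called lower and 0% higher. At an unadjusted p under 0.05, 9.87% of those regions were higher and 1.64% lower in limma, and edgeR gave 0 in each list, with or without adjustment. Without DMSO replicate 3, limma called 6 higher and 1 lower in each of the first 3 lists given here and 2 higher and 1 lower in the last. It then called 2394 higher and 17206 lower of all 45326 regions. Array weights gave 10 higher and 2 lower, 10 and 1, 9 and 2, and 2 and 4, beside 6337 higher and 28658 lower of all 44763 regions. A replicate block gave 1 coactivator gene, beside 112 higher and 384 lower of all regions. Under these settings the share among regions standing for coding genes was not computed. Of 15 coactivator and modifier genes 13 had log2 changes above 0, with a median of 0.17, where 68.8% of all coding gene regions were above 0. Most fitted regions of the first 3 lists averaged 50 CPM or more. Of all 6457 such regions, 85.6% were above 0 and 15.6% were higher at an unadjusted p under 0.05 in limma. The 3 coactivator genes higher at that threshold were HIPK1, EP300 and CREBBP. HIPK1, a homeodomain-interacting protein kinase, held 157 ± 23.6 CPM in WM-1119 and 107 ± 6.60 CPM in DMSO (SD, n = 3 each; limma adjusted p = 0.263). The acetyltransferase genes EP300 and CREBBP had log2 changes of 0.39 ± 0.15 and 0.34 ± 0.17 (SE), and the RUNX1 coactivators KAT6A and KAT6B of 0.31 ± 0.16 and 0.05 ± 0.17 (SE).

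Of 15 corepressor genes 14 were fitted and 10 were above 0, with a median of 0.13, and 2 were higher at an unadjusted p under 0.05. TLE4, a Groucho-type corepressor that binds the last residues of RUNX proteins, had a log2 change of 0.33 ± 0.16 and the H3K9 methyltransferase gene SUV39H1 of 0.40 ± 0.20 (SE). RUNX1T1, the fusion partner of RUNX1 in another leukaemia, had no listed region at its ends.

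Of 15 blood factors that bind beside RUNX1, 12 were fitted and 9 were above 0, with a median of 0.15, and an unadjusted p under 0.05 was reached by 3 higher and 1 lower. ETV6, SPI1 and GFI1, genes of myeloid transcription factors, had log2 changes of 0.34 ± 0.15, 0.34 ± 0.15 and 0.28 ± 0.13 (SE). GATA2, a stem and progenitor factor, held 13.2, 13.8 and 13.9 CPM in WM-1119 replicates 1, 2 and 3, against 25.02, 24.6 and 16.2 CPM in DMSO replicates 1, 2 and 3, without overlap (log2 change -0.63 ± 0.30, SE; limma adjusted p = 0.365; of all coding gene regions 3.06% lay lower without overlap). Most of those are stronger than GATA2: all fitted regions of 10 to 20 CPM had a median of -0.40 and quartiles of -0.68 and -0.14, and GATA2 lay inside these. FLI1, ERG and ETS1 had no listed region at their annotated ends.

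Of 16 known RUNX1 target genes in blood 11 were fitted, 3 above and 8 below 0, with a median log2 change of -0.07, and 1 was higher at an unadjusted p under 0.05. Only 7 of the 11 averaged at least 10 CPM, and the median of all fitted regions of 1 to 10 CPM was -0.65. ELANE, the neutrophil elastase gene, held 115 ± 11.4 CPM in WM-1119 and 89.5 ± 13.6 CPM in DMSO (SD, n = 3 each; limma adjusted p = 0.363). MPO, the myeloperoxidase gene, held 6.54 ± 1.80 CPM in WM-1119 and 12.6 ± 5.04 CPM in DMSO (SD, n = 3 each; limma adjusted p = 0.376). The medians depend on the scaling: in the order of the lists they were 0.03, 0.04, 0.03 and 0.12 with quantile normalization, 0.94, 0.90, 0.93 and 0.70 with median centring, and 0.54, 0.51, 0.49 and 0.47 in edgeR, where the median of all regions was 0.01, 0.30 and -0.13. Without DMSO replicates 1 and 2 they were 0.06, -0.03, -0.16 and 0.06, with HIPK1 at 0.53 and GATA2 at -0.23. The other genes named above for an unadjusted p under 0.05 in limma were then closer to 0 or reversed. EP300 was at 0.06, CREBBP at -0.08, TLE4 at 0.11 and SUV39H1 at -0.01. ETV6 was at -0.16, SPI1 at 0.09, GFI1 at 0.003 and ELANE at 0.13.

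Over the 6 libraries, other genes had profiles nearly the same as those of the core binding factor genes. For CBFB the highest Pearson r on the log2(CPM + 1) scale among 7924 other end regions of at least 20 CPM belonged to FLII (0.998), the end shared by MGAT4B and SQSTM1 (0.998) and HGSNAT (0.998), and 364 regions exceeded 0.95. For RUNX1 proximal they were DLX2 (0.997), ZNF516 (0.995) and MED13L (0.995), with 168 regions above 0.95, and the 3 named were, like RUNX1 proximal, highest in DMSO replicate 3 and lowest in DMSO replicate 1. For RUNX2 proximal they were the end shared by PKIB and SERINC1 (0.992), that shared by ISCA2 and NPC2 (0.991) and NIPSNAP3B (0.981), with 26 above 0.95. For RUNX3 proximal they were PTPRE (0.962), the end shared by CCDC82 and JRKL (0.954) and STEAP3 (0.949), with 2 above 0.95. All points come from the same 6 libraries and share their depth and background, so these values describe the libraries.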

How the data were processed

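H3K9ac ChIP-seq of MOLM-13 was compared between 3 WM-1119 and 3 DMSO libraries, grouped and numbered by sample titles. Per the submitters' processing notes, Bowtie2, SAMtools, MACS2 and bedtools were used with the build hg38; versions, region merging and duplicate handling are not given in the sources used here. Although the authors named the deposited values TPM, they are CPM: each column sums to 1000000 and its values are whole multiples of 1 step per library, whatever the width. In each library 100% of the tested values came within 0.02 of a whole read count. With its step near a round value, the reads of WM-1119 replicate 2 are uncertain, and edgeR left it out. Starts were read as counted from 0, and 1 was added.

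Genes came from the RefSeq table of GRCh38.p14, promoter starts and strands from its promoter table (CBFB strand: background knowledge). A region within 1 kb of the 5′ end was called distal, or of an internal RefSeq start proximal. Other genes were represented by their strongest region within 1 kb of either end. limma 3.58.1 (trend, robust) in R 4.3.3 was fitted to log2(CPM + 1) where the mean reached 1 CPM, edgeR 4.0.16 served as an alternative, and shares were tested by exact permutation in Python 3.11.15. limma was tested on simulated data (dispersion 0.05, 200 changed regions, all of at least 10 CPM). No 2 libraries of a group agreed within sampling noise (lowest chi-square over its degrees of freedom, 1.66). All promoter regions were named, and per gene the 4 strongest internal regions and those with the largest change each way at a mean of at least 10 CPM; of the lists, up to 3 genes per direction by p. KAT6A, KAT6B and MPO were added after their values were seen. Members and lists were chosen with earlier results of these data known.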

Additional observations from a re-analysis of the deposited data

How the results depend on the processing

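The count of regions that passed over the whole table, 27 in limma and all lower, was 2 with a minimum of 10 CPM, 1 with quantile normalization (all lower), 2 with median centring (both higher), 0 with neither trend nor robust fit, 34995 with array weights, 76 with background subtracted, 0 in edgeR, 0 without DMSO replicates 1 and 2, and 0 to 19600 when 1 library was left out. Of the members, 0 passed under those settings except 33 with array weights (8 higher, 25 lower) and 19 without DMSO replicate 3 (2 higher, 17 lower), the range over left-out libraries being 0 to 19.

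Of the promoters, RUNX1 proximal turned to -0.13 (log2) with quantile normalization, to -0.23 without DMSO replicates 1 and 2 and was -0.076 to 0.21 with 1 library left out. RUNX1 distal turned to -0.086 with quantile normalization and was -0.034 to 0.24 with 1 library left out. RUNX2 proximal turned to -0.15 with quantile normalization, to -0.27 without DMSO replicates 1 and 2 and was -0.043 to 0.21 with 1 left out. RUNX3 distal turned to 0.30 with median centring and to 0.042 without DMSO replicates 1 and 2. With array weights RUNX1 distal (0.26), RUNX2 proximal (0.15), RUNX3 proximal (0.23) and CBFB (0.50) passed, and CBFB was 0.38 to 0.61 with 1 library left out, passing without DMSO replicate 3. Gene sums were -0.069 to 0.084 for RUNX2, -0.11 to 0.11 for RUNX3 and 0.38 to 0.59 for CBFB, which passed without DMSO replicate 3, as did 1107 higher and 1228 lower of 13561 sums. The RUNX1 proximal share was -1.51 percentage points without DMSO replicates 1 and 2. The cause was not tested.

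Weak regions turned above 0 as follows, on the log2 scale, each named by gene and start. The RUNX3 weaker distal region gave 0.37 with quantile normalization, 0.48 with median centring, 0.46 without DMSO replicates 1 and 2 and 0.070 in edgeR. RUNX1 34866038 gave 0.57, 0.67 and 0.70 under the first 3 of these, 0.34 in edgeR, 0.10 with array weights, 0.56 with background subtracted, and -0.50 to 0.42 with 1 library left out. RUNX3 24910819 gave 0.23 with quantile normalization and 0.28 with median centring, and RUNX3 24963651 gave 0.050 and 0.20. CBFB 67030807 gave 0.23 and 0.48, 0.29 with array weights, and -0.53 to 0.019 with 1 library left out. With median centring RUNX1 35025823 gave 0.34 (0.057 with array weights), RUNX2 45436296 gave 0.19 and RUNX2 45445321 gave 0.22.

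Libraries of the same replicate number deviated from their group means with correlations of 0.22, 0.05 and 0.33 over regions. Not every pair exceeded 0.1, so the numbers were not taken as pairs, although 5 of 6 libraries correlated best with their own number. With the replicate number as a block 496 regions passed, 112 higher and 384 lower, 0 of them members (CBFB at limma adjusted p = 0.0507), and the sum of CBFB passed at 0.48 (limma adjusted p = 0.014), as did 316 higher and 339 lower of 13529 gene sums. DMSO replicates 1 and 2 held the fewest reads, and 0 reads in DMSO replicate 1 allow up to 4.17 CPM.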
